A study of Mus musculus with 8 samples.

Results

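The 10 genes described here are 7 Kruppel-like factors (Klf2, Klf3, Klf4, Klf6, Klf7, Klf9 and Klf10) and the 3 members of the NR4A family (Nr4a1, Nr4a2 and Nr4a3). They were taken by exact gene symbol from a deposited table of 56691 genes, and each symbol matched 1 row. RNA had been sequenced in bulk from sorted mouse Kupffer cells, which are macrophages resident in liver sinusoids, in 4 libraries from wild-type mice (WT 1 to 4) and 4 from Vsig4-/- mice (KO 1 to 4). Vsig4 encodes a receptor by which Kupffer cells bind complement-coated particles, and it can restrain T cells. Both groups carried the same treatment, liver metastases of B16F10 melanoma, a mouse tumour line, and were taken 7 days after injection of the tumour cells. Living cells positive for CD45 and Tim-4 were sorted. The strain, age and sex of the mice, the construction of the Vsig4 allele and whether each library came from its own animal were not given in the sources used here. The p-values therefore measure the spread between libraries, some of which may be technical.

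Kruppel-like factors bind GC-rich and CACCC sequences through zinc fingers at their C-terminal end. Klf2 and Klf4 restrain inflammatory gene expression in endothelium and myeloid cells, Klf6 is broadly expressed and induced by injury, and Klf3 represses transcription through CtBP. Klf9 is induced by glucocorticoids and Klf10 by TGF-beta, while Klf7 is best known from neurons and adipose tissue. The NR4A proteins are orphan nuclear receptors whose activity is set mainly by how much of them is made, and their genes are immediate early genes that respond within minutes to hours to calcium, cyclic AMP and growth signals. In the myeloid lineage Nr4a1 is required for patrolling monocytes. Several of these genes, among them Klf2, Klf4, Klf6 and Nr4a1, are also induced while tissue is cut up and digested, so their level in sorted cells can include a response to isolation.

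Promoter stretches of 6 of the genes are shown because the results below turn on these members. The NR4A promoters also have a motif in common, while their transcripts had different patterns. The stretches are RefSeq sequences of GRCm38.p6, read 5′ to 3′ on the strand of the gene. Each runs from 250 bases before the listed promoter start up to the first annotated exon in that window. For Nr4a1 and Nr4a3 this listed start is not the outermost RefSeq start of the gene (chr15:101253902 and chr4:48045078). The Nr4a1 stretch lies inside the gene span, and most of the Nr4a3 stretch lies past the outermost start. Capitals mark half-sites of the cyclic AMP response element (TGACG on either strand) and, where present, a MEF2 element. MEF2 proteins act downstream of the kinase ERK5 and can induce Klf2 and Klf4.
Klf2: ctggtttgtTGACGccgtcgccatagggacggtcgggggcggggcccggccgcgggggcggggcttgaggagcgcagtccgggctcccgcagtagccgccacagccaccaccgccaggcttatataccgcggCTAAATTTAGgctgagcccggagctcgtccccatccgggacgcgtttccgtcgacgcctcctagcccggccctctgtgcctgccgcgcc
Klf4: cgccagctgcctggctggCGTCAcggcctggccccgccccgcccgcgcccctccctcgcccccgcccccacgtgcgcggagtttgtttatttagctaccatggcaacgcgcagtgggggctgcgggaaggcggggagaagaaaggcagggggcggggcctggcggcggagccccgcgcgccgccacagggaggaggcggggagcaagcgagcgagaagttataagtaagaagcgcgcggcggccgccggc
Klf6: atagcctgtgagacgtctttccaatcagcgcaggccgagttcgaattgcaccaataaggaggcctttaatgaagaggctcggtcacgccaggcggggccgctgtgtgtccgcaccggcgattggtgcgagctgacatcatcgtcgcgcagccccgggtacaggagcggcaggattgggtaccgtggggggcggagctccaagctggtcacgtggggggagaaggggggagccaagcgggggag
Nr4a1: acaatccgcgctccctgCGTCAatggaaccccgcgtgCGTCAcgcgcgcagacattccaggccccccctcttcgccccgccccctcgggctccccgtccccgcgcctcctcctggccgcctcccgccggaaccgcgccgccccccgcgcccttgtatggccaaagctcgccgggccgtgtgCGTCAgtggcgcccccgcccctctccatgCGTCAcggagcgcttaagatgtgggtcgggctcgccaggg
Nr4a2: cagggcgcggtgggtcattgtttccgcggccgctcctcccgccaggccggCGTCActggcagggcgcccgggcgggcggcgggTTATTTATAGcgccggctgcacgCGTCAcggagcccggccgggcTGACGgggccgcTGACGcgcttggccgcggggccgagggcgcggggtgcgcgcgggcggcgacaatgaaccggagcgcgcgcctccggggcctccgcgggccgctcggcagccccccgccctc
Nr4a3: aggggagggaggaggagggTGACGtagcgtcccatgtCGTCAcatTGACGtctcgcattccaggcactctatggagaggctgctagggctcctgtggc
They lie at chr8:72318812-72319032 (plus strand, Klf2), chr4:55532476-55532725 (minus strand, Klf4), chr13:5861239-5861481 (plus strand, Klf6), chr15:101266596-101266845 (plus strand, Nr4a1), chr2:57124004-57124253 (minus strand, Nr4a2) and chr4:48045055-48045152 (plus strand, Nr4a3).

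Motifs were counted on both strands over the full 250 bases before the listed promoter start, in the 9 members with an entry. Klf10 had none. The Klf7 window, like that of Nr4a1, lies inside the RefSeq span of its gene (chr1:64029448-64122345, minus strand). Each of the 3 NR4A genes held 4 half-sites of the cyclic AMP response element. Of 32851 promoter windows of the same length, 17.8% held at least 1 and 0.137% held 4 or more. The cut of 4 is the count seen in the NR4A genes. These windows were not matched for GC content, which was 61.2% to 80.0% in the printed NR4A stretches. Of the 4 in Nr4a3, 1 lies in an annotated exon and is not printed. Those starting 213, 205 and 147 bases before the listed promoter start lie past the outermost RefSeq start of Nr4a3. Klf2, Klf4 and Klf9 held 1 half-site each, and Klf3, Klf6 and Klf7 held none. The full palindrome TGACGTCA, found in 1.55% of windows, was in none of the 9. A MEF2 element was found upstream of Klf2, as CTAAATTTAG starting 118 bases before the start, and upstream of Nr4a2, as TTATTTATAG at 167 bases, against 2.92% of all windows. The GC box GGGCGG was most frequent upstream of Klf3, with 6 matches, and Klf3 also had 5 matches to CACCC. These matches are letters in a window and were not tested as binding sites. The GC box and CACCC do not contain each other, and the half-site is part of the full palindrome.

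All libraries had similar depth, from 15264043 to 19513844 counts, and mitochondrial genes took 4.07% to 8.16% of them. The libraries labelled KO had 2 to 9 counts of Vsig4 and those labelled WT 22498 to 46735. Kupffer cell identity genes were present throughout, with 16 of 16 listed genes tested and summed levels of 20931 to 36854 CPM in WT against 8340 to 25392 CPM in KO. All 16 were at lower values in KO (median log2 fold change, KO minus WT, -0.59, close to the sizes given below for Klf2 and Klf6); 0 passed without the replicate block and 9 fell with it. The median of these markers was -0.092 with the melanoma covariate used below, and 0.078 in the 5 libraries compared there. The part of these markers in the KLF differences was not tested. CPM here are counts relative to library size after TMM scaling. RNA of melanoma was present in unequal amounts: 10 melanoma genes summed to 639, 557, 6262 and 5316 CPM in WT 1 to 4, against 2803, 3964, 13901 and 7157 CPM in KO 1 to 4. KO 3 stood apart, with the highest melanoma sum and the lowest Kupffer sum. Gpnmb and Mitf, which are in the melanoma list, are also expressed by macrophages. Of other cell types in liver, of which endothelium lacks CD45 and should not pass the gate, nor lymphocytes without Tim-4, listed genes summed to 203 to 849 CPM for sinusoidal endothelium, 537 to 1938 CPM for patrolling monocytes, 36.2 to 173 CPM for T cells and 39.7 to 116 CPM for B cells. In bulk RNA, fewer cells of a type and less RNA per cell cannot be told apart.

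All 10 members passed the filter on low counts, with 44 to 7786 counts per library. Levels can be compared between genes only per length, and for this the authors' deposited FPKM were used. Klf2 and Klf6 were the most abundant of the 10 transcripts, with 118 ± 17.1 and 95.2 ± 15.2 FPKM in WT (mean ± SD, n = 4, as throughout) and 81.3 ± 9.77 and 62.5 ± 15.8 FPKM in KO. Klf2 was above Klf6 in 4 of 4 WT and 3 of 4 KO libraries, but the ranges of the pair overlapped in both genotypes. Klf4 and Nr4a1 formed the next tier in WT at 41.7 ± 21.9 and 35.9 ± 8.29 FPKM. Klf10 (17.3 ± 2.29 FPKM in WT), Klf3 (from 10.7 to 16.6), Klf9 (10.6 ± 1.47), Nr4a3 (9.64 ± 6.94) and Klf7 (8.94 ± 1.35) followed. Each of these overlapped its neighbour in the order. Nr4a2 was lowest at 1.30 ± 0.305 FPKM in WT and 1.38 ± 0.994 FPKM in KO, below every value of Klf7 in the same genotype. In KO the order of the means differed in that Nr4a1 stood above Klf4 (37.5 ± 10.5 and 24.2 ± 13.1 FPKM) and Nr4a3 above Klf10 (19.6 ± 10.5 and 16.9 ± 2.82 FPKM), with overlapping ranges for both pairs. Over the 8 libraries Nr4a3 varied most, 9.73-fold between lowest and highest, and Klf10 least, 1.41-fold.

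**Figure D1:**
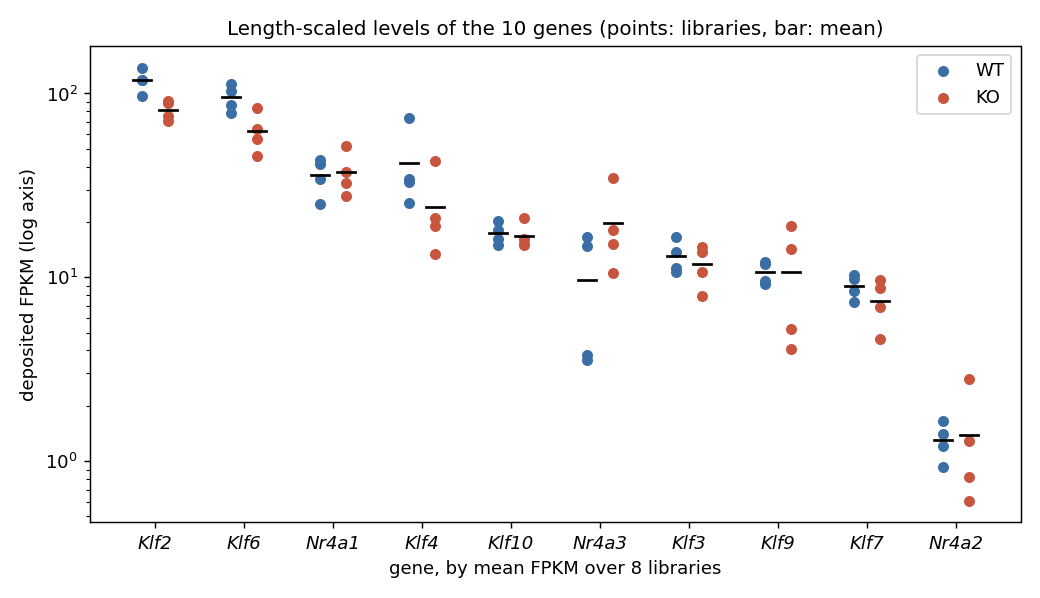
Deposited FPKM (log axis) of each gene in each library, ordered by the mean over 8 libraries, with WT in blue, KO in red and the group mean as a bar. Klf2 and Klf6 lie at the top, Nr4a2 lies lowest, and Nr4a3 spreads from 3.57 to 34.8 FPKM.

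The comparison of KO with WT asks how Kupffer cells differ without Vsig4. Klf2, Klf4 and Klf6 had lower levels in KO, by 1.54-, 1.82- and 1.62-fold, Nr4a3 had a higher level, by 1.95-fold, and the other members lay between 1.27-fold lower and 1.01-fold lower. None of the 10 passed the adjusted threshold of 0.05 in edgeR without a block, where 1 of 15870 tested genes (0.0063%), Vsig4 itself, passed. At an unadjusted p under 0.05, 2 members were lower, against 4.56% of tested genes, and 0 higher, against 4.23%. DESeq2 called 0 members as well, and 0.391% of tested genes. With the replicate number as a block, 4 members passed, against 14.0% of tested genes: Klf2, Klf4 and Klf6 fell, against 5.01% of tested genes called lower, and Nr4a3 rose, against 8.98% called higher. The labels do not say that equal numbers mark paired animals, and the data separated numbers 1 and 2 from 3 and 4 rather than each number from the others. All 4 blocked calls were lost when pair 1, pair 2 or pair 3 was left out. The median log2 fold change (KO minus WT) of the 7 KLF genes was -0.35, that of the 10 members -0.18 and that of all tested genes -0.0028.

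**Figure D2:**
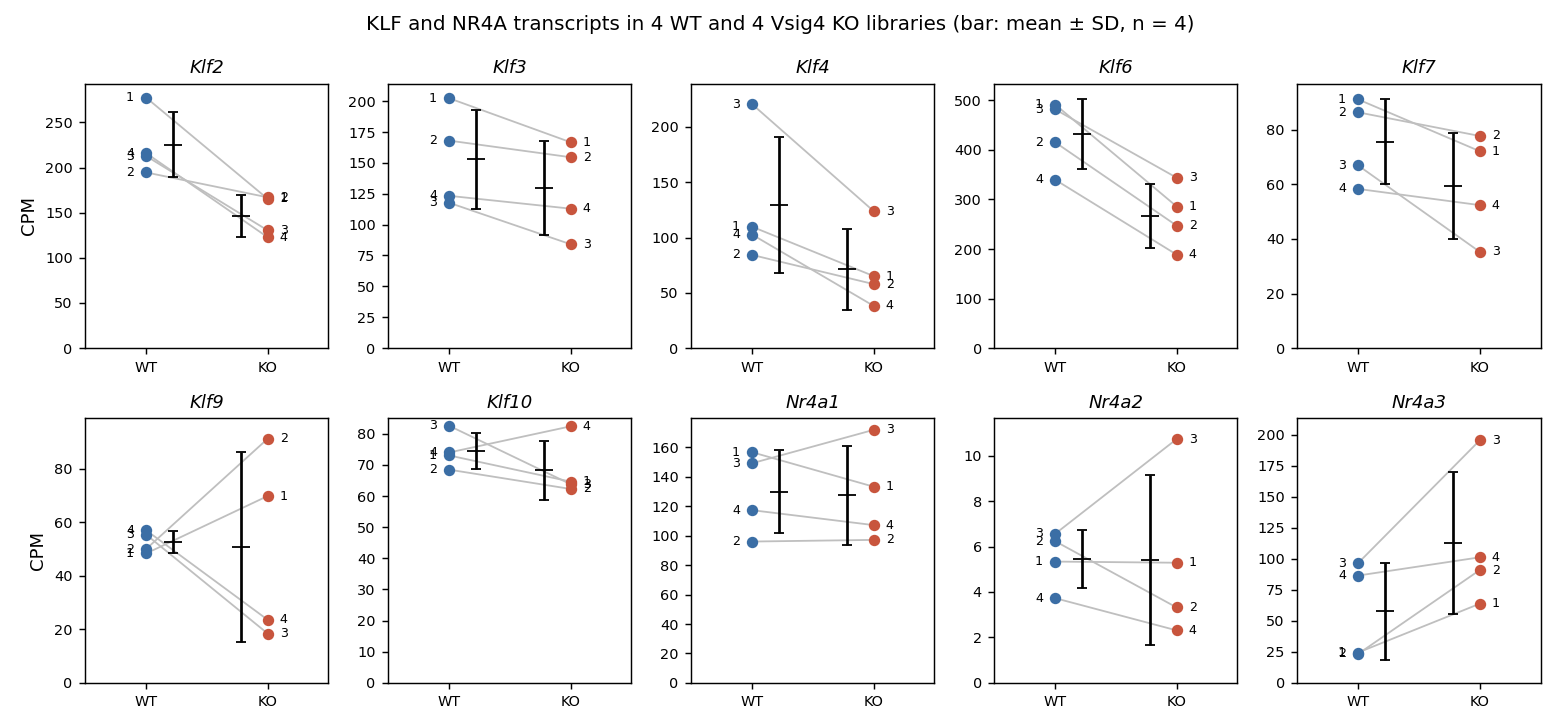
CPM of each gene in WT (blue) and KO (red) libraries; digits are replicate numbers, grey lines join equal numbers, and black bars are mean ± SD (n = 4). Klf2 is the gene whose genotypes do not overlap. Klf2, Klf3, Klf4, Klf6 and Klf7 fall along all 4 grey lines, as do 19.6% of tested genes. Nr4a3 rises along all 4, as do 23.9%.

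Klf2 (ENSMUSG00000055148, chromosome 8, 73072877 to 73075500, plus strand as deposited, in coordinates of an unnamed build) had 278, 195, 213 and 216 CPM in WT 1 to 4 and 165, 167, 130 and 123 CPM in KO 1 to 4. Every KO library was below every WT library. Of all tested genes, 2.85% were apart in this direction, and 2.71% in the other, where there was no member. The mean was 225 ± 36.1 CPM in WT against 146 ± 23.1 CPM in KO, a log2 fold change of -0.62 ± 0.158 (SE; edgeR unadjusted p = 0.0038, adjusted p = 0.492). With the block it was -0.62 ± 0.119 (adjusted p = 0.0260), and DESeq2 gave an adjusted p of 0.0732 without it.

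Klf4 (ENSMUSG00000003032, chromosome 4, 55527143 to 55532466, minus strand as deposited) had 110, 84.2, 221 and 103 CPM in WT 1 to 4 and 65.1, 57.9, 124 and 38.1 CPM in KO 1 to 4. In both genotypes number 3 was the highest library, and KO 3 lay above WT 1, WT 2 and WT 4, so that the groups overlapped. Within equal numbers Klf4 was lower in KO in 4 of 4 pairs. The log2 fold change was -0.86 ± 0.410 (edgeR adjusted p = 0.492), and -0.89 ± 0.143 with the block (adjusted p = 0.0254). Without WT 3 it was -0.49 and without KO 3 -1.27 (adjusted p = 0.451 and 0.860), so these libraries set the size of the difference.

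Klf6 (ENSMUSG00000000078, chromosome 13, 5911481 to 5920393, plus strand as deposited) had 492, 415, 482 and 340 CPM in WT 1 to 4 and 286, 247, 344 and 189 CPM in KO 1 to 4. The overlap consisted of KO 3 lying above WT 4, and all 4 pairs were lower in KO. The log2 fold change was -0.70 ± 0.206 (edgeR adjusted p = 0.492), and -0.72 ± 0.103 with the block (adjusted p = 0.0254).

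Klf3 and Klf7 had lower values in KO in all 4 pairs as well, by less. In all, 5 members were lower in KO in every pair, against 19.6% of tested genes. Klf3 had 202, 168, 118 and 123 CPM in WT 1 to 4 and 167, 155, 84.1 and 113 CPM in KO 1 to 4 (log2 fold change -0.24 ± 0.255, edgeR adjusted p = 0.619, and 0.116 with the block). Klf7 had 91.2, 86.4, 67.0 and 58.4 CPM in WT against 72.2, 77.8, 35.3 and 52.4 CPM in KO (-0.35 ± 0.256, adjusted p = 0.514, and 0.0951 with the block). In each genotype numbers 1 and 2 were above 3 and 4 for both genes, and the pair had the most alike patterns among the members, with a root-mean-square difference of 0.13 in centred log2 CPM. Klf10 was the steadiest, with 68.5 to 82.5 CPM in WT and 62.3 to 82.4 CPM in KO (-0.13 ± 0.117, adjusted p = 0.577).

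Klf9 split the KO libraries. It had 48.3, 50.0, 55.4 and 57.0 CPM in WT 1 to 4, and 69.8, 91.2, 18.4 and 23.6 CPM in KO 1 to 4. KO 1 and KO 2 were above all WT libraries and KO 3 and KO 4 below all of them, so the mean difference was near 0 (log2 fold change -0.05 ± 0.468, edgeR adjusted p = 0.958) and its sign depended on which library was left out. The 10 listed glucocorticoid receptor targets summed to 1492, 1953, 689 and 848 CPM in KO 1 to 4, which is the same split. In WT 1 to 4 they summed to 1620, 1522, 1151 and 1135 CPM, a fall from numbers 1 and 2 to 3 and 4 that Klf9 did not have. The summed Kupffer genes, Klf3 and Klf7 were also higher in KO 1 and KO 2 than in KO 3 and KO 4, so the split was not particular to these targets. Tsc22d3 and Sgk1, the most expressed targets, had 384 ± 119 and 509 ± 146 CPM in WT against 290 ± 189 and 389 ± 164 CPM in KO. Of the 10 listed targets, 1 rose (Mt2, a metallothionein) and 1 fell (Per1) with the block. The genes most like Klf9 in pattern were Il15ra, Rnf169 and Stx3 (root-mean-square differences of 0.21, 0.22 and 0.28).

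The NR4A genes differed among themselves in pattern. Nr4a1 had 157, 96.0, 149 and 117 CPM in WT 1 to 4 and 133, 97.2, 172 and 107 CPM in KO 1 to 4. The genotypes interleaved (log2 fold change -0.03 ± 0.219, edgeR adjusted p = 0.954), and in both, number 2 was lowest. Nr4a2, with 44 to 194 counts per library, had 3.73 to 6.56 CPM in WT and 2.31 to 10.7 CPM in KO (-0.02 ± 0.458, adjusted p = 0.989). Its highest value was again in KO 3.

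Nr4a3 (ENSMUSG00000028341, chromosome 4, 48045153 to 48086447, plus strand as deposited) had 24.5, 23.4, 96.7 and 86.6 CPM in WT 1 to 4 and 63.8, 91.0, 196 and 101 CPM in KO 1 to 4. WT 1 and WT 2 were the lowest libraries, KO 3 was the highest, and the remaining 5 lay between 63.8 and 101 CPM. The log2 fold change was 0.97 ± 0.546 (edgeR adjusted p = 0.492), and 1.14 ± 0.245 with the block (adjusted p = 0.0300); without KO 3 it was 0.57 with no block. It was higher in KO in 4 of 4 pairs, as were 23.9% of tested genes. Nr4a3 made up 13.1% and 18.6% of the summed NR4A CPM in WT 1 and WT 2, 38.3% and 41.7% in WT 3 and WT 4, and 31.5% to 51.7% in KO.

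The order of the libraries by Nr4a3 was nearly their order by melanoma RNA. WT 2 and WT 1 were lowest in both and KO 3 highest in both. With the melanoma genes' mean log2 CPM as a covariate, the log2 fold change of Nr4a3 was 0.15 ± 0.118 (edgeR adjusted p = 0.881). In the 5 libraries left after removing WT 1 and WT 2, which had the least melanoma RNA, and KO 3, which had the most, it was -0.10 ± 0.195 (adjusted p = 0.968). The 3 genes of at least moderate expression most like Nr4a3 over the 8 libraries were Uck2, a uridine-cytidine kinase, the transcription factor Nfib and the myelin protein gene Mbp, with root-mean-square differences of 0.096 to 0.10. Mbp had 38.8, 34.9, 141 and 123 CPM in WT 1 to 4 and 100.2, 118, 315 and 162 CPM in KO 1 to 4. Which cells the Nr4a3 transcripts came from was not tested.

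Klf3 and Klf7 were lowest in KO 3, and with the covariate their log2 fold changes were 0.16 ± 0.149 and -0.0037 ± 0.177. Klf10, Nr4a1 and Nr4a2 stayed below 0 with the covariate, at -0.20, -0.16 and -0.21. Klf2, Klf4 and Klf6 also kept their direction, with much of the size kept for Klf2 and Klf6 and a larger size for Klf4. With the covariate they were at -0.51 ± 0.157, -1.30 ± 0.355 and -0.69 ± 0.227 (edgeR unadjusted p = 0.00910, 0.00455 and 0.0126; adjusted p = 0.476, 0.402 and 0.511). In the 5 libraries of closer melanoma content they were at -0.50, -1.59 and -0.77 (adjusted p = 0.937, 0.753 and 0.911). This set keeps WT 3, the highest WT library of Klf4, and lacks KO 3, its highest KO library. Without WT 3 alone, Klf4 was at -0.49. When libraries were scaled to the summed Kupffer genes instead, the median of all tested genes moved to 0.78, and Klf2, Klf4 and Klf6 turned to 0.13, 0.11 and 0.22, which is 0.65, 0.68 and 0.57 below that median; Nr4a3 was 1.08 above it.

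**Figure D3:**
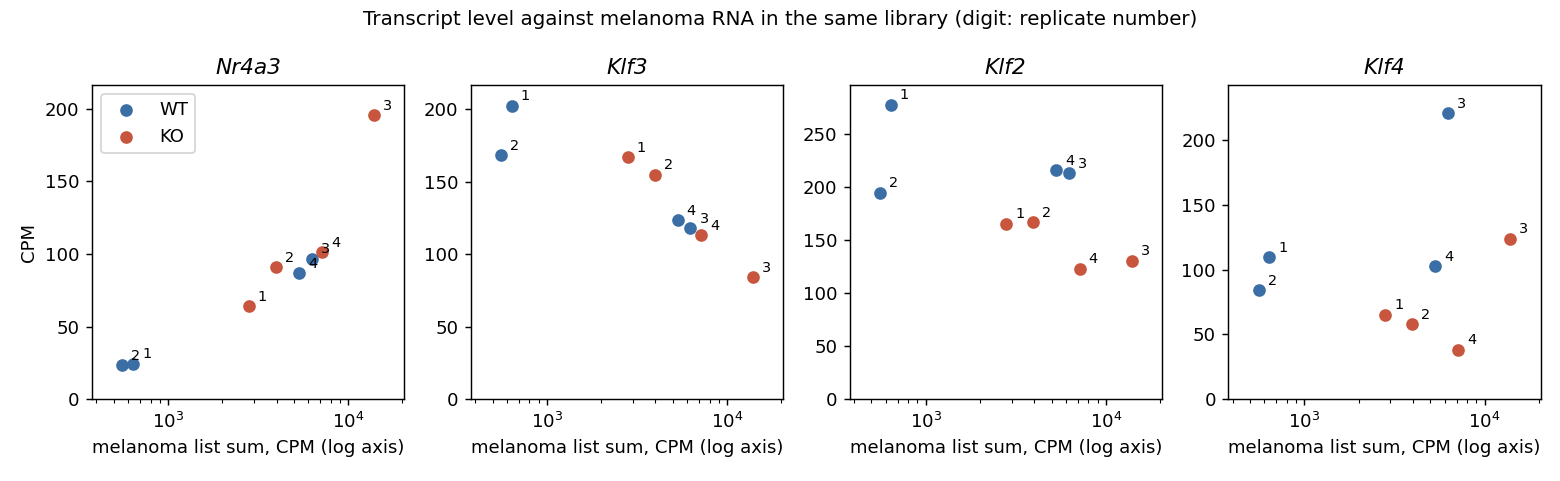
CPM of Nr4a3, Klf3, Klf2 and Klf4 (vertical axes) against the summed CPM of 10 melanoma genes in the same library (log axis), WT in blue, KO in red, digits for replicate numbers. Nr4a3 runs from 23.4 CPM in WT 2 to 196 CPM in KO 3 with rising melanoma RNA and Klf3 falls, and every KO point of Klf2 is below every WT point. The genotypes share only part of the melanoma range: no KO library is below 2803 CPM and no WT library above 6262 CPM.

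**Figure D4:**
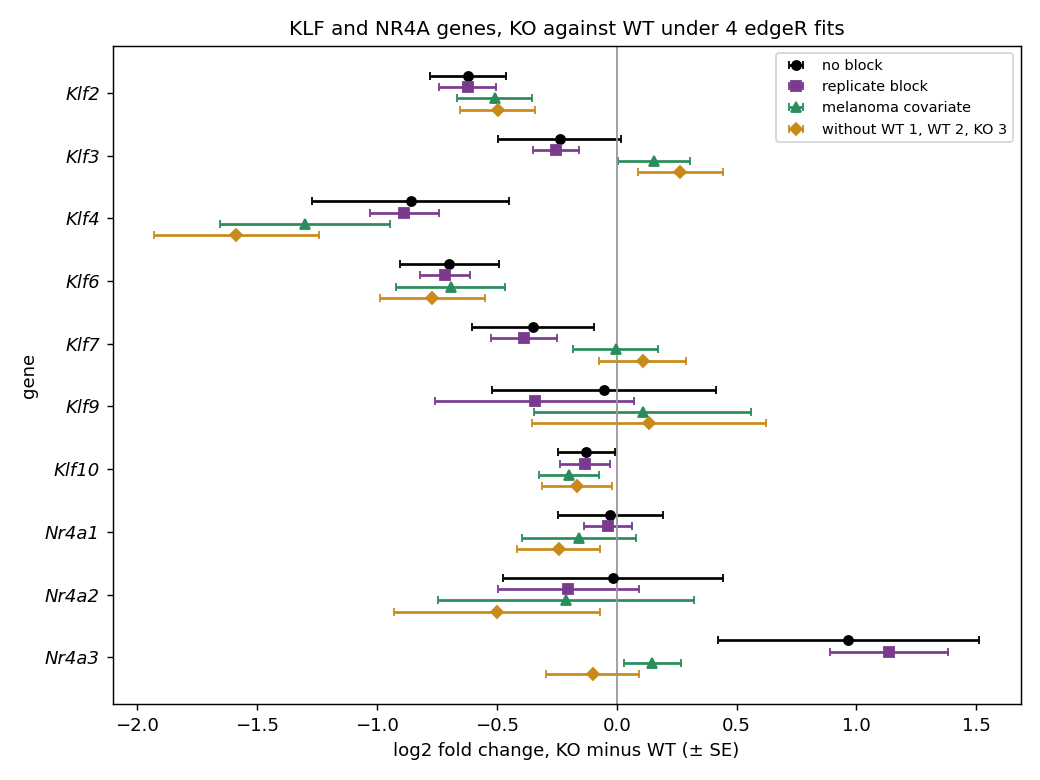
Log2 fold changes (KO minus WT ± SE) of the 10 genes in edgeR without a block, with the replicate block, with the melanoma covariate, and without WT 1, WT 2 and KO 3. Klf2, Klf4 and Klf6 are below 0 in all 4 fits, and so are Klf10, Nr4a1 and Nr4a2, which lie nearer 0 without the block. Nr4a3 goes from 0.97 to 0.15 with the covariate and to -0.10 in the smaller set.

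Klf4 and Klf6 had their nearest patterns among immediate early genes. Of all 15870 tested genes, the 8492 with an average log2 CPM of at least 4 were searched. The nearest to Klf4 were Egr1, Fosb and Jun (root-mean-square differences of 0.19, 0.29 and 0.29), and the nearest to Klf6 were Fos, Junb and Ier5 (0.11, 0.14 and 0.17). All 6 are in the immediate early and dissociation list. The search did not use that list, but the list was chosen with earlier results of these data known. Egr1, a zinc finger factor induced by growth signals, had 410, 369, 804 and 330 CPM in WT 1 to 4 and 279, 169, 440 and 123 CPM in KO 1 to 4. Like Klf4 it was highest at number 3 in both genotypes and lowest in KO 4. Fos, a subunit of AP-1, had 1234 ± 199 CPM in WT against 760 ± 220 CPM in KO without overlap, and fell with the block (log2 fold change -0.73 ± 0.124, adjusted p = 0.0254).

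**Figure D5:**
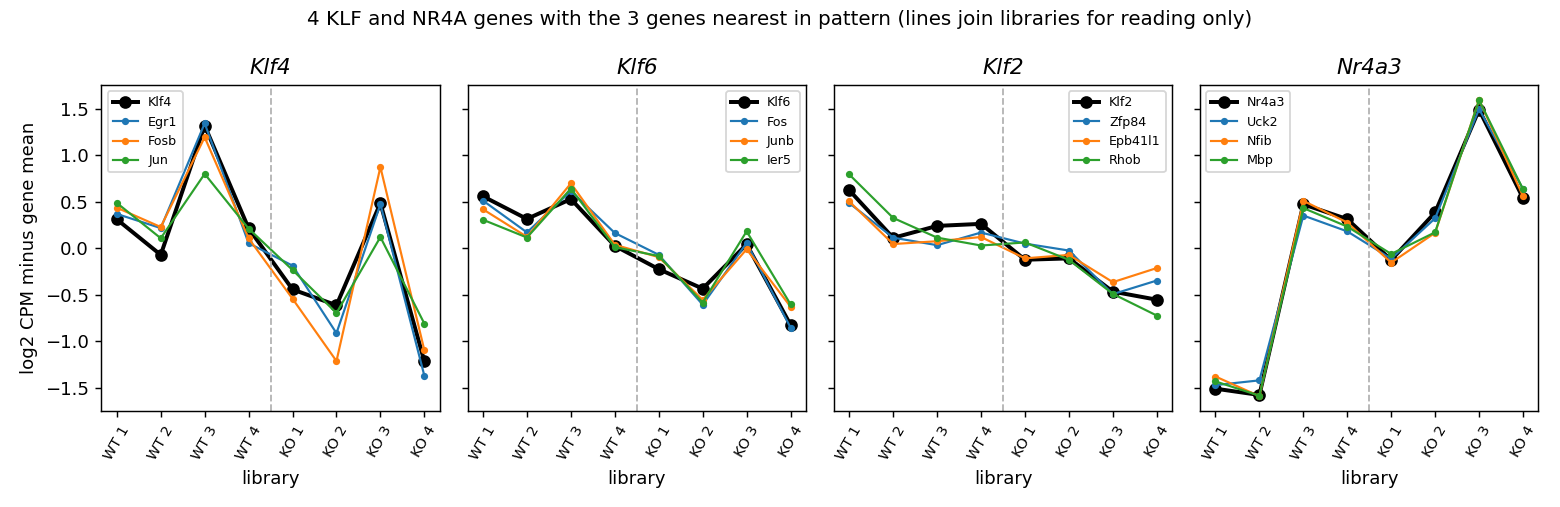
Log2 CPM minus the gene's own mean in the 8 libraries (WT left of the dashed line, KO right) for Klf4, Klf6, Klf2 and Nr4a3 in black, each with its 3 nearest genes in colour. Klf4 and Klf6 run with Egr1, Fosb, Jun, Fos, Junb and Ier5, and Nr4a3 with Uck2, Nfib and Mbp.

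Of the 21 immediate early and dissociation genes, 16 had lower and 5 higher values in KO (median log2 fold change -0.47); none passed without the block, and with it 12 fell and 0 rose. The phosphatase gene Dusp1 had 913 ± 153 CPM in WT against 593 ± 154 CPM in KO, and Jun, the partner of Fos, 568 ± 126 and 330 ± 100.4 CPM. The list summed to 6536, 5360, 7434 and 4919 CPM in WT 1 to 4, against 4566, 3253, 5044 and 2746 CPM in KO 1 to 4, so KO 3 lay above WT 4. With the melanoma covariate the list's median was -0.65. The list includes genes that rise during tissue digestion, and its part in the differences of Klf2, Klf4 and Klf6 was not tested. Nr4a1, itself an immediate early gene, did not share the lower values. The nearest genes of Klf2 were Zfp84, Epb41l1 and the small GTPase gene Rhob (0.14 to 0.16).

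Klf2 and Klf4 are also prominent in endothelium, and Klf2 in lymphocytes, so markers of these cells were set beside them. Sinusoidal endothelial genes summed to 849, 779, 453 and 471 CPM in WT 1 to 4, against 603, 569, 203 and 413 CPM in KO 1 to 4; 11 of 12 had lower values in KO and 8 fell with the block. Stab2 and Pecam1 were the highest of them, with means of 297 and 144 CPM in WT against 227 and 107 CPM in KO. Neither passed with the block. The median log2 fold change of the list was -1.12 without the block and -0.089 with the melanoma covariate. In the 5 libraries of closer melanoma content it was 0.11. The cells had been sorted for CD45, which endothelial cells lack, and for Tim-4. How fully this sort removed endothelial cells and lymphocytes was not tested. T cell genes summed to 91.5, 173, 55.6 and 57.6 CPM in WT against 158, 113, 45.7 and 36.2 CPM in KO, and B cell genes to 69.2 to 116 CPM in WT and 39.7 to 99.8 CPM in KO, with overlap. No defining marker of endothelium, T cells or B cells was at 0 in every library. Their part in the Klf2 difference was not tested. Hepatocyte and stellate cell genes had list medians of -0.60 and -0.82 without the block. With the melanoma covariate these were -1.33 and -1.15, and in the 5 libraries -1.40 and -1.26. Both lists had their highest sums in WT 3, at 2872 and 252 CPM, where Klf4 was also highest. Of 10 genes in each list, 10 and 9 had lower values in KO, and 2 of each fell with the block. The part of these 2 lists in the Klf4 difference was not tested.

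Of 10 further KLF genes, 6 were tested, and 1 passed, with the block. Klf13 and Klf11 were the most expressed, with 117 ± 9.79 and 25.0 ± 2.28 CPM in WT against 105 ± 41.5 and 22.4 ± 2.54 CPM in KO (log2 fold changes -0.15 and -0.16, edgeR adjusted p = 0.770 and 0.530). Klf15 rose with the block (4.66 ± 2.77 CPM in WT against 7.95 ± 4.04 CPM in KO; adjusted p = 0.0374), and with the melanoma covariate its log2 fold change was 0.034. Klf14 and Klf17 had no counts. Sp1 and Sp3, zinc finger factors of the same superfamily that bind GC boxes, had log2 fold changes of -0.02 ± 0.0834 and 0.0094 ± 0.0985, and 0 of 4 SP genes passed in either fit.

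Regulators known to act upstream were read next. In the ERK5 and MEF2 module, 7 of 7 genes were tested and 1, the kinase gene Map3k2, fell with the block (89.8 ± 16.9 CPM in WT, 69.8 ± 19.6 CPM in KO; adjusted p = 0.0431). Mef2a and Mef2d, the most expressed, had 345 ± 70.5 and 114 ± 27.4 CPM in WT against 262 ± 78.7 and 92.1 ± 16.1 CPM in KO (adjusted p = 0.0601 and 0.0698 with the block). With the melanoma covariate the 3 log2 fold changes were -0.050, -0.094 and 0.030. In the CREB and CRTC module, which drives NR4A genes in response to cyclic AMP, 1 of 10 genes fell with the block: Crem, whose products include an inducible repressor. It had 58.1, 55.9, 15.7 and 15.3 CPM in WT 1 to 4 and 22.3, 22.7, 12.8 and 12.1 CPM in KO 1 to 4. WT 1 and WT 2 were high and the other 6 low, and with the covariate its log2 fold change was 0.073. Ep300 and Prkacb, the most expressed, had -0.15 and -0.11 (adjusted p = 0.605 and 0.713 without the block).

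Partners and targets were read in the same fits. Among 10 corepressors and partners, the nuclear receptor Rxra, which pairs with Nr4a1 and Nr4a2, and the ubiquitin ligase Wwp1 fell with the block and the deacetylase Hdac2 rose (adjusted p = 0.0439, 0.0447 and 0.0498); with the covariate they were at -0.023, -0.069 and 0.081. Of 10 TGF-beta early response genes, Skil, Tgif1 and Tgfbr2 fell and Smad3 rose with the block. Skil, a repressor of SMAD signalling, had 246 ± 72.7 CPM in WT against 163 ± 45.3 CPM in KO, and -0.15 with the covariate. Of 10 genes linked to Klf2 and Klf4 in vessels and macrophages, 9 had lower values in KO and 1, the survival factor Mcl1, fell with the block (1105 ± 240 CPM in WT against 792 ± 267 CPM in KO; adjusted p = 0.0408, and -0.11 with the covariate). Mrc1, the mannose receptor, had 1426 ± 423 and 982 ± 447 CPM (adjusted p = 0.0555 with the block). Among 16 tested clock genes Per1 fell and Bhlhe41 rose with the block, and Bhlhe41 was at 3.20 and 4.04 CPM in WT 1 and WT 2 and 112 CPM in KO 3. None of these genes passed without the block.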

How the data were processed

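RNA of sorted Kupffer cells was sequenced in 8 libraries, for which the labels' protocols name the VAHTS Universal V8 kit. HTSeq 0.6.1 and the mm10 build are named in the submitters' processing notes; the aligner, the annotation and the strand setting were not given in the sources used here. The deposited table holds raw counts per gene and library and FPKM values, per the file headers. The authors' FPKM matched count, exonic size and column total within 0.015 for 100% of genes. In column names C was read as WT, K as KO and the digit as the title's number. The deposited start of every member differed from RefSeq GRCm38.p6, so deposited coordinates are given without a build and promoter sequences (RefSeq, GRCm38.p6) were matched by symbol. Without strand, the genes overlapping Klf3, Klf7, Klf9 and Nr4a1 could not be told apart from them; these had at most 109 counts.

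Counts were filtered with filterByExpr (15870 genes), scaled by TMM and tested with edgeR 4.0.16 (R 4.3.3), quasi-likelihood F test, 2-sided, Benjamini-Hochberg over all tested genes. Alternatives used DESeq2 1.42.0, its size factors, no filter, limma 3.58.1 on log2(FPKM + 1), a replicate block, each library or pair left out, a melanoma covariate, and scaling to Kupffer genes. The script was tested on simulated data. Deviations from genotype means correlated at 0.561, 0.544, 0.660 and 0.290 between equal numbers, each over 0.1, which met the rule set for treating libraries as paired by number, on the data alone and not on the labels. Unequal numbers correlated as much: WT 2 with KO 1 at 0.669, WT 4 with KO 3 at 0.557, WT 1 with KO 2 at 0.445 and WT 3 with KO 4 at 0.309. The other unequal pairings were negative, so the values show a split of 1 and 2 from 3 and 4, not a match of each number. A count of 0 allows 3 counts, 0.154 to 0.197 CPM, for counting error only. Libraries of 1 genotype differed by more than sampling noise (chi-square per degree of freedom of at least 10.0).

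The members and lists were chosen with earlier results of these data known. Named are the members, Vsig4, the 2 most expressed genes of each pathway list and up to 4 that passed in the fit with or without the block, and the 3 genes nearest each member in root-mean-square difference of centred log2 CPM (prior count 2) over 8 libraries. The lists whose changes are not given above moved as follows, as lower of tested genes: NK cell 5 of 6, classical monocyte 4 of 6, patrolling monocyte 4 of 7, neutrophil 2 of 5, dendritic cell 3 of 6 and erythroid 4 of 4.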

Additional observations from a re-analysis of the deposited data

Results flagged for a closer look

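Klf10 in KO 4, at 82.4 CPM, stood apart from the other 3 KO libraries, which lay between 62.3 and 64.6 CPM; its gap to the nearest was 0.883 of the range, above Dixon's critical value for 4 samples. It was 1 of 20 groups of 4 examined for the 10 genes, and chance marks about 1 in 20. KO 4 lay close to WT 3 (82.5 CPM), and Klf10 was lower in KO in the other 3 pairs.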

How the results depend on the processing

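Without a block 1 gene was called, 2 without the filter, 62 by DESeq2, and 1 to 2 when each library was left out. The replicate block gave 2220 genes and 4 members; without pair 1, 2, 3 or 4 it gave 207, 2, 1 and 2229 genes, with 4 members again without pair 4 and 0 without pair 1, 2 or 3. Under the block with a pair left out, adjusted p-values ran from 0.0260 to 0.0827 for Klf2, 0.0127 to 0.0827 for Klf4, 0.0208 to 0.0827 for Klf6 and 0.00955 to 0.0948 for Nr4a3, the full block included. No member was called when each library was left out (0 to 0), and the members' median log2 fold change then ran from -0.42 to -0.11; under the block without pair 2 it was -0.39. Signs turned for members near 0: Klf9 (-0.50 to 0.22), Nr4a1 (-0.21 to 0.076) and Nr4a2 (-0.59 to 0.23) over the libraries left out, Klf9 at 0.073 under the block without pair 3, Nr4a1 at 0.019 without pair 1, Nr4a2 at 0.035 without pair 2, and Nr4a1 at 0.052 in limma on FPKM.

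With the melanoma covariate Klf3 was at 0.16 and Klf9 at 0.11. The set without WT 1, WT 2 and KO 3 and the Kupffer scaling with the block were chosen after seeing the data; in the first, Klf3 was at 0.27, Klf7 at 0.11, Klf9 at 0.13 and Nr4a3 at -0.10. Kupffer scaling raised the median of all genes to 0.78, and to 0.67 with the block. The members' median was then 0.40 and 0.38. Klf2 was at 0.13, Klf3 at 0.46, Klf4 at 0.11, Klf6 at 0.22, Klf7 at 0.30, Klf9 at 0.35, Klf10 at 0.64, Nr4a1 at 0.90 and Nr4a2 at 1.14. With the block too, Klf2 was at 0.059, Klf3 at 0.43, Klf7 at 0.29, Klf9 at 0.32, Klf10 at 0.55, Nr4a1 at 0.64 and Nr4a2 at 0.47, while Klf4 (-0.20) and Klf6 (-0.041) stayed below 0, and 7434 genes and 2 members, Nr4a1 and Nr4a3, were called. This scaling assumes that Kupffer genes themselves did not change; the cause of the other shifts was not tested. Depth limits Nr4a2 most, with 44 to 194 counts.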
